A study of Mus musculus with 4 samples.

Results

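Ion transport genes of the salivary gland were examined in the open chromatin of mouse salivary gland organoids (mSGOs). The 9 genes were taken by name from a RefSeq table of mouse genes, and all 9 were found among its 21436 protein-coding genes with a known strand. They were divided by the part of the gland in which their products are best known to act. Cftr, Scnn1a, Scnn1b and Scnn1g formed the ductal group, and Slc12a2, Ano1 and Kcnn4 the acinar group. Slc4a4 and Atp1b1, which serve both kinds of cell, were placed in neither group. Of 32011 distinct open regions in the deposited list, 53 lay at, in or within 50 kb of these genes.

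Acinar cells take up chloride across their basal side through the cotransporter encoded by Slc12a2, driven by the sodium pump, and release it into the lumen through the calcium-activated chloride channel encoded by Ano1, while the potassium channel encoded by Kcnn4 keeps the cell voltage that this release needs. Sodium and water follow, and the ducts then take sodium and chloride back through the epithelial sodium channel (ENaC), made of the subunits encoded by Scnn1a, Scnn1b and Scnn1g, and through the chloride channel encoded by Cftr. The sodium bicarbonate cotransporter encoded by Slc4a4 brings bicarbonate into the cell, and Atp1b1 encodes a beta subunit of the sodium pump.

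ATAC-seq marks stretches of the genome that are open to the Tn5 transposase. The series held 4 samples of mSGOs grown from submandibular glands of C57BL/6 mice and not irradiated. There were 2 samples of passage 1 and 2 of passage 2. Each passage had 1 sample labelled with an age of 12 weeks and 1 with an age of 3 months. All cultures were kept in Matrigel in the same medium, which held EGF, FGF2, insulin, N2, dexamethasone (a glucocorticoid), Y27632 and conditioned media with R-spondin1 and Wnt3a. The organoids are a mixture of cell types, so that a region open in few cells and a region weakly open in all cells cannot be told apart. The authors deposited 1 list for the whole series, in which no sample has values of its own. Spread between replicates and depth per sample are therefore unknown, no passages or ages were compared, and the values below carry no error and no test. Each region has a fold of signal over the local background and an irreproducible discovery rate (IDR) score, which ran from 540 to 1000, with higher scores for more reproducible regions.

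The labels name the build GRCm39, whereas the regions fitted GRCm38. A region midpoint lay within 1 kb of 38.3% of coding 5′ ends of GRCm38.p6, against 3.56% to 4.66% when these ends were shifted by 2 to 100 kb and 5.03% for 5′ ends of a GRCm39 annotation. All coordinates are given as in the list, read as GRCm38. Marker genes of cell types were counted as well, beside the 38.3% of all coding genes. A region lay at the 5′ end of 2 of 6 luminal duct markers (Krt8 and Cldn4, not Krt18, Krt7, Krt19 or Clic1). It did so for 2 of 3 basal duct markers (Krt5 and Krt14, not Trp63). Only the outermost 5′ end of each marker gene was used. Trp63, with a length of 208.3 kb, held 7 regions elsewhere in the gene and had 3 outside it within 50 kb. The regions of Krt5 (fold 2.95, IDR score 565) and Krt8 (fold 5.96, IDR score 610) had scores near the list minimum of 540. A 5′ region was listed for 0 of 6 acinar markers (Aqp5, Bhlha15, Prol1, Smgc, Dcpp1 and Dcpp2). The same held for 0 of 3 markers each for myoepithelial, immune, endothelial and fibroblast cells. The defining acinar marker genes were thus without a promoter region in this list, and the genes called acinar below are named for their known role only. Krt7 and Clic1, which the paper used as luminal duct markers in such organoids, also lacked one. A missing promoter region therefore does not by itself show that a cell type is absent. From single-cell data, however, the paper reported that these organoids were without the acinar population of the gland. It described more pro-acinar cells in its older organoids, whereas its ATAC-seq used the younger ones.

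Promoter sequences are shown for 5 members, so that the starts of Kcnn4 and Scnn1g, the members whose window lay in an open region, can be read beside 3 of the starts without one. Each is the 300 bases from 250 before to 50 after a start in RefSeq (GRCm38.p6), read 5′ to 3′ on the strand of the gene, with every CpG dinucleotide in capitals. The windows of Kcnn4 (chr7:24370013-24370312, plus strand) and Scnn1g (chr7:121734229-121734528, plus strand) lay wholly inside an open region. Those of Scnn1b (chr7:121864788-121865087, plus strand), Cftr (chr6:18170437-18170736, plus strand) and Atp1b1 (chr1:164458306-164458605, minus strand) held 0 bases of any region.
Kcnn4: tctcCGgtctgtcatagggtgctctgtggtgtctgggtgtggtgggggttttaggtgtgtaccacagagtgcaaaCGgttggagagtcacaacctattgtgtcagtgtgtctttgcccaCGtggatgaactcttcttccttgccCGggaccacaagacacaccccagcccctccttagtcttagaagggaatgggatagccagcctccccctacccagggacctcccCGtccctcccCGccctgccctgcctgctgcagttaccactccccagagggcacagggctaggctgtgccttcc
Scnn1g: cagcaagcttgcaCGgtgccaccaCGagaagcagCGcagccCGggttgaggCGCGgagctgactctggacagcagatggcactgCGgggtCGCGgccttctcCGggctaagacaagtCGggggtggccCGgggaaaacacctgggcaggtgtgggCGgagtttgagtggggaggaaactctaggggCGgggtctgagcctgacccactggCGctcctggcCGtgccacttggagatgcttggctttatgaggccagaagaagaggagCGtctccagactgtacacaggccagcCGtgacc
Scnn1b: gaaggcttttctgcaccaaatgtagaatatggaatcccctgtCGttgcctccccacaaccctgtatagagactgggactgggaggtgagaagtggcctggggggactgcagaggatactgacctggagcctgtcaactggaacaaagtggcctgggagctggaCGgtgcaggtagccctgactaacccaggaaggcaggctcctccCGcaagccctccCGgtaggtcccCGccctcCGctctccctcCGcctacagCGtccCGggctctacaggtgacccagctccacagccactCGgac
Cftr: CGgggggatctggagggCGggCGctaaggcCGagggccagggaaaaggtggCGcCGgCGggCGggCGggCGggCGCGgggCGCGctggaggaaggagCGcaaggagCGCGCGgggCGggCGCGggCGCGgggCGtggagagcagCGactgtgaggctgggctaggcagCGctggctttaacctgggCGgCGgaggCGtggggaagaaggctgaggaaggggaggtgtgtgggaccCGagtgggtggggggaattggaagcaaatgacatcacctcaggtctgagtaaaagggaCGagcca
Atp1b1: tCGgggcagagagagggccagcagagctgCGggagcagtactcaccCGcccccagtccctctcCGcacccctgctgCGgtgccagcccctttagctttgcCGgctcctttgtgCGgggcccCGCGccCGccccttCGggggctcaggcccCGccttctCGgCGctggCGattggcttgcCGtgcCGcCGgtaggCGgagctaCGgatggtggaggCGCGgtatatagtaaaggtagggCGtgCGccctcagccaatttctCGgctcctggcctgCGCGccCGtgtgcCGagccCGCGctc

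A region was counted at the 5′ end when its midpoint lay within 1 kb of the outermost 5′ end of the gene. This was the case for 3 of the 9 genes (33.3%), namely Scnn1a, Scnn1g and Kcnn4, beside 38.3% of all 21436 coding genes. The share of the members thus lay close to the background. Other places were more often occupied. A region lay elsewhere in the gene for 6 of 9 members, beside 25.6% of coding genes, and outside the gene within 50 kb for 9 of 9, beside 71.0%. Counting all 3 places, all 9 members had a region, beside 78.5% of coding genes. Because long genes hold more regions, the count in the gene was also taken per length. The members held 18 regions in 984.8 kb of gene, or 1.83 per 100 kb, and all coding genes together held 1.17 per 100 kb. Only the ductal group lay well above that background, with 3.70 per 100 kb. The acinar group had 1.21 and the 2 genes in neither group 1.07.

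**Figure D1:**
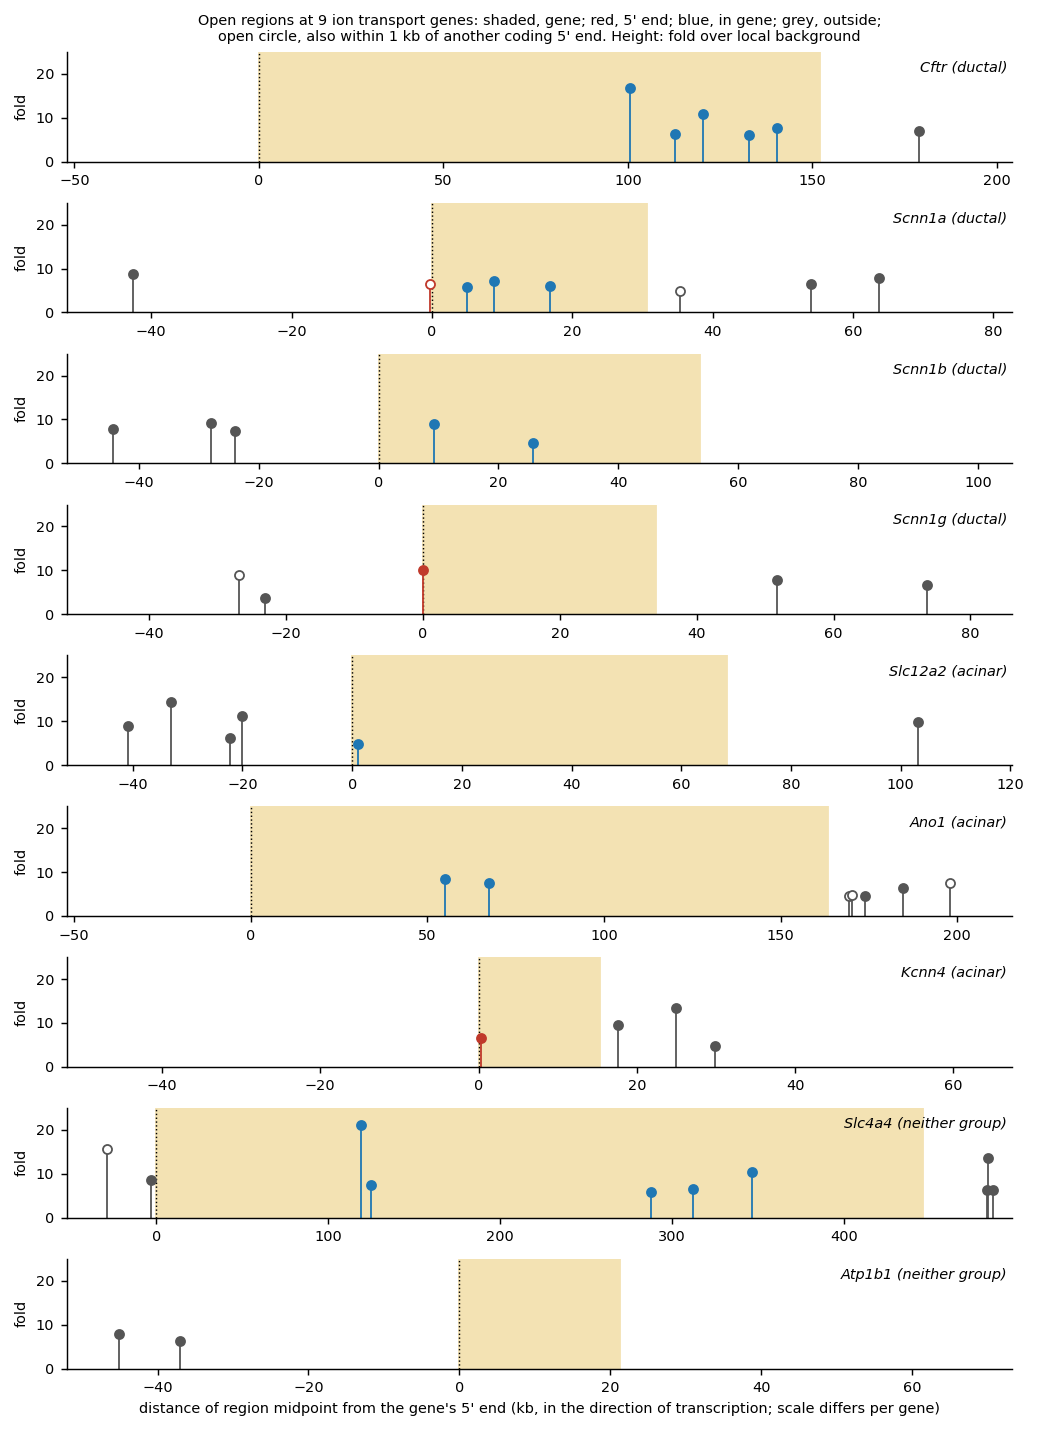
Open regions around each of the 9 genes, with the distance of the region midpoint from the 5′ end in kb on the x axis (in the direction of transcription, with its own scale for each gene) and the fold over the local background on the y axis. The gene is shaded, and a red, blue or grey mark stands for a region at the 5′ end, in the gene or outside it, with an open circle where another coding 5′ end lies within 1 kb. Cftr has 5 regions in the last part of the gene and none near its start, and Atp1b1 has none in the gene.

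The alpha subunit of ENaC is encoded by Scnn1a (chr6:125314271-125344943, plus strand), which had 8 regions, the most in the ductal group. Per length, this was 6.12 regions per 100 kb of the gene and its flanks, against a median of 1.93 over coding genes, and it placed Scnn1a at percentile 93.8 among them. The region at its 5′ end (chr6:125313808-125314117) had a fold of 6.39 and an IDR score of 836. It ended 154 bp before the start of Scnn1a and covered the 5′ end of Ltbr, which encodes the lymphotoxin beta receptor. Ltbr lies on the opposite strand, its 5′ end is 386 bp from that of Scnn1a, and the midpoint of the region was 77 bp from that of Ltbr and 0.3085 kb from that of Scnn1a. The region therefore cannot be assigned to 1 of these genes. Both of its summits lay upstream of Scnn1a, at 397 bp (fold 6.39) and 269 bp (fold 4.36). Inside Scnn1a, 3 regions followed at 5.02, 8.80 and 16.8 kb from the 5′ end, with folds of 5.81, 7.27 and 6.09. Downstream, the region 4.76 kb past the gene (fold 4.99) covered the 5′ end of Tnfrsf1a, which encodes a receptor for tumor necrosis factor, and those at 23.4 and 33.1 kb past the gene lay within Plekhg6. A region 42.6 kb upstream had the highest fold of the locus, 8.67. All 8 folds, from 4.99 to 8.67, were below the upper quartile of the list, 9.32.

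The beta and gamma subunits are encoded by neighbouring genes in the same orientation, Scnn1g (chr7:121734420-121768482) and Scnn1b (chr7:121865038-121918728). Their 5′ ends differed. Scnn1g had a region across its start (chr7:121734144-121734724), with a fold of 10.0 and an IDR score of 1000, the strongest of the 3 promoter regions of the members. Among regions at coding 5′ ends, whose median fold was 7.90, this fold stood at percentile 71.1. Its main summit lay 162 bp upstream of the 5′ end, and a weaker summit 242 bp inside the gene had a fold of 2.88. Scnn1b had no region at its start. The nearest lay 9.21 kb into the gene (chr7:121874071-121874423) with a fold of 8.98 and an IDR score of 1000, and another lay at 25.8 kb with a fold of 4.68. Scnn1g, in contrast, had 0 regions elsewhere in the gene. The 96.6 kb between both genes held 5 regions, with folds from 6.61 to 9.13, and 0 other genes of the table. Of these 5, the last 3 lay 44.36, 27.99 and 23.98 kb upstream of Scnn1b, and the middle one of these 3 had the highest fold, 9.13. On its other side, Scnn1g had a region 26.9 kb upstream (fold 8.89) that covered the 5′ end of Usp31, which encodes a ubiquitin protease, and one at 23.0 kb with a fold of 3.62, the lowest of all 53 regions.

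Cftr (chr6:18170687-18322770, plus strand) had no region within 100 kb of its start. The nearest was 100.6 kb inside the gene, and 82.6% of coding genes had a region closer to their 5′ end. All 5 regions in Cftr lay in 1 stretch of 40.4 kb, between 66.2% and 92.4% of the way along the gene. The first of them (chr6:18271006-18271489) had a fold of 16.8, the second highest of all members' regions, and exceeded 98.7% of the list. It was followed at 112.8, 120.3, 132.8 and 140.5 kb by regions with folds of 6.21, 10.95, 6.05 and 7.68. IDR scores of these 5 regions were 1000, 675, 1000, 959 and 1000 in that order. The count of 5, without regard to gene length, placed Cftr at percentile 97.8 of coding genes for regions in the gene outside the 5′ end. Slc4a4, a longer gene, had the same count and percentile. Per length, Cftr held 3.29 regions per 100 kb of gene. For the gene and its flanks this was 2.38 per 100 kb, at percentile 55.7 among coding genes. In the flanks, 1 region lay 27.0 kb past the 3′ end with a fold of 7.03, and 0 lay within 50 kb upstream. Whether these regions lie in introns or exons was not examined, because no exon annotation of GRCm38 was used here.

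Slc12a2 (chr18:57878512-57946821, plus strand), the gene of the acinar chloride uptake cotransporter NKCC1, had a region just past the limit that defines a 5′ end. Its midpoint lay 1.10 kb inside the gene and its near edge 893 bp inside. With a fold of 4.81 and an IDR score of 658, it exceeded 9.23% of the list by fold. For comparison, the member region farthest from a start among those counted at a 5′ end was that of Scnn1a, at 0.3085 kb. Stronger regions lay upstream of Slc12a2. At 40.9, 33.0, 22.3 and 20.1 kb before the gene, folds were 8.91, 14.4, 6.07 and 11.2, and 3 of these 4 regions had an IDR score of 1000. The second (chr18:57845231-57845754) exceeded 96.1% of the list by fold. No other coding 5′ end lay within 1 kb of any of them. A further region lay 34.9 kb past the 3′ end with a fold of 9.80.

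Ano1 (chr7:144588549-144752026, minus strand) had no region at its outermost 5′ end, nor within 1 kb of the start in the promoter table, which lies 13.5 kb inside the gene. The nearest region was 55.1 kb from the 5′ end and 41.7 kb from that inner start. The gene held 2 regions, at 55.1 kb (chr7:144696678-144697096, fold 8.46, IDR score 900) and at 67.4 kb (chr7:144684475-144684869, fold 7.42, IDR score 1000). Upstream of Ano1, 0 regions were listed within 50 kb. All 5 flanking regions lay past its 3′ end, and 3 of them were at the 5′ ends of other genes, Fadd (2 regions, folds 4.45 and 4.83) and Ppfia1 (fold 7.61). Fadd encodes an adaptor of death receptors and Ppfia1 a liprin.

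Kcnn4 (chr7:24369826-24385212, plus strand) was the acinar gene with a region across its start (chr7:24369810-24370374). This region had a fold of 6.48, an IDR score of 972 and 3 summits, at 71, 182 and 470 bp inside the gene with folds of 4.77, 6.48 and 2.29. Among regions at coding 5′ ends, its fold stood at percentile 31.4. The start in the promoter table, used for the printed sequence, lies 0.437 kb inside the gene. The summits at 71 and 182 bp thus lay upstream of that start and just before the printed window. No further region lay in this short gene of 15.4 kb. The strongest region of the locus lay 9.59 kb past the 3′ end (chr7:24394451-24395151), with a fold of 13.3 and a −log10 q-value of 143.3. A region 2.28 kb past the 3′ end had a fold of 9.47, and one at 14.5 kb, within Smg9, had a fold of 4.85. Upstream within 50 kb, Kcnn4 had 0 regions.

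Slc4a4 (chr5:88793858-89239656, plus strand), the longest member with 445.8 kb, had 10 regions, and none within 1 kb of its outermost 5′ end. The nearest lay 3.00 kb upstream of that end with a fold of 8.50. The promoter table gives 2 starts inside the gene, at 93.4 and 234.1 kb, and the nearest regions lay 25.5 and 53.8 kb from them. The highest fold of all members, 21.2, was found in the gene at 118.9 kb (chr5:88912506-88913055), and exceeded 99.8% of the list. The other 4 regions in the gene had folds from 5.87 to 10.3. Upstream, a region with a fold of 15.5 covered the 5′ end of Dck, which encodes deoxycytidine kinase. Downstream, 3 regions lay within 37.5 to 40.9 kb of the 3′ end, and the middle one had a fold of 13.6. Per length, Slc4a4 had 1.83 regions per 100 kb of gene and flanks, slightly below the median of 1.93 over coding genes.

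Atp1b1 (chr1:164437099-164458355, minus strand) was the only member with no region overlapping the gene. Its 2 regions lay upstream, at 37.0 kb (fold 6.21, IDR score 740) and 45.0 kb (fold 7.96, IDR score 843), and neither had an IDR score of 1000. Other genes of the pump are given below. Because depth is unknown, a missing region shows only that none passed the authors' thresholds.

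**Figure D2:**
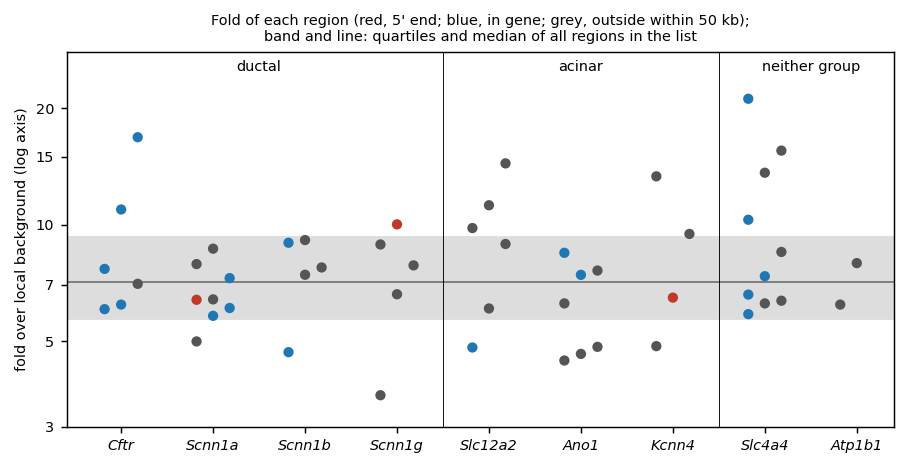
Fold over the local background of each of the 53 regions (log y axis) by gene, with red, blue and grey points for regions at the 5′ end, in the gene and outside it within 50 kb. The grey band and line give the quartiles (5.70 and 9.32) and the median (7.11) of all regions. Cftr, Scnn1g, Slc12a2, Kcnn4 and Slc4a4 have regions above the band, whereas the regions of Scnn1a, Scnn1b, Ano1 and Atp1b1 stay within or below the band.

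The ductal and acinar groups were then set side by side. At the 5′ end, 2 of 4 ductal genes (50.0%) and 1 of 3 acinar genes (33.3%) had a region, beside 38.3% of coding genes. Of the 2 ductal regions, that of Scnn1a covered the 5′ end of Ltbr and not its own. Within 2 kb of the 5′ end, or by any overlap, the counts were 2 of 4 and 2 of 3, beside 41.4% and 39.1% of coding genes. Among the 16006 regions with the lowest q-values they were 1 of 4 and 1 of 3, beside 25.9%. The order of the groups thus changed with the setting. In the genes, the counts were 10 regions in 270.5 kb for the ductal group and 3 in 247.2 kb for the acinar group, or 3.70 and 1.21 regions per 100 kb, with 1.17 over all coding genes. Of the 10 ductal regions, 5 belonged to Cftr and 3 to Scnn1a, while Scnn1g had 0. Outside the genes, 12 regions lay within 50 kb of the 4 ductal genes and 13 within 50 kb of the 3 acinar genes, where coding genes had a median of 2 per gene. With regions at other coding 5′ ends set aside, 10 were left in each group. Within 20 kb, with such regions kept, the counts were 2 ductal and 6 acinar. The ductal ones included the region at Tnfrsf1a, and the acinar ones those at Fadd. The median fold was 7.35 (from 3.62 to 16.8) over 24 ductal regions and 7.42 (from 4.45 to 14.4) over 17 acinar regions, beside 7.11 over the whole list. An IDR score of 1000 was reached by 12 and 9 of them, or 50.0% and 52.9%, beside 45.0% of all regions. Genes are not replicates and the groups are small, so none of these differences was tested.

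Over all 53 regions, 3 were at a 5′ end, 18 elsewhere in a gene and 32 outside, of which 6 were at the 5′ end of another coding gene. Median folds were 6.48 for the 3 at 5′ ends, 7.32 in the genes and 7.68 outside. In the whole list, regions at coding 5′ ends had a median fold of 7.90 and the others 6.87. For several members, the next region lay not far beyond the limit of 50 kb. It was 50.3 kb outside Cftr, with a fold of 6.38. For Scnn1g, Kcnn4, Scnn1b and Scnn1a it lay 52.2, 53.1, 56.9 and 58.5 kb outside the gene. The farthest region inside the limit was 45.0 kb before Atp1b1.

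Members with a promoter in the sequence table were compared by CpG content. Over all 21262 coding promoters of the table, the share with a region within 1 kb rose with the number of CpG dinucleotides in the 300 bases, from 3.41% at 0 to 2 CpGs to 69.5% at 21 to 30, and was 64.1% at 31 or more. Among the members, the starts with a region had 6 and 18 CpGs, and those without had from 3 to 50. Cftr and Atp1b1, with 31 CpGs each, and the first start of Slc4a4, with 50, had no region. The promoter of Kcnn4 had a region with only 6 CpGs, a class (6 to 10) in which 24.7% of promoters had one, and Scnn1b with 10 CpGs had none. Scnn1g and Ano1 had 18 CpGs each, in a class where the share was 58.7%, and of these Scnn1g had a region. The second start of Slc4a4 had 3 CpGs and no region. These are 8 starts of 7 genes, given as a description. Why CpG-rich starts lacked a region was not tested.

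**Figure D3:**
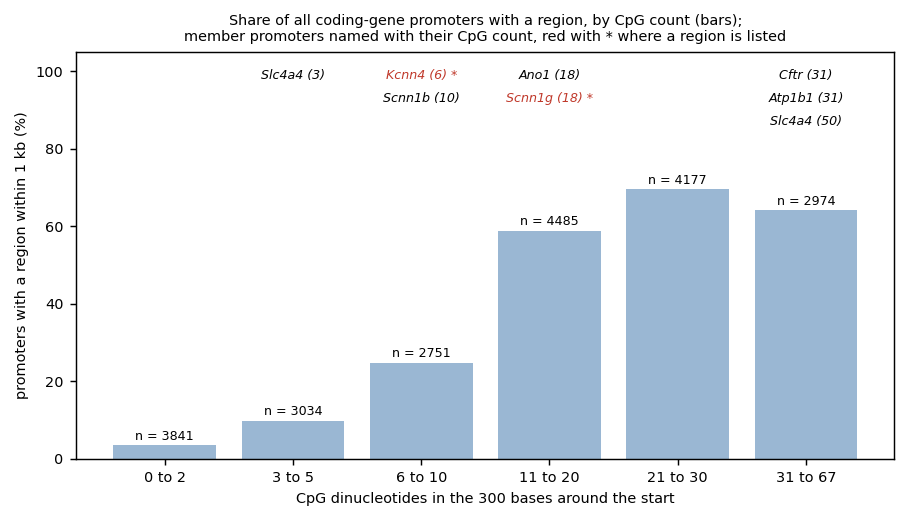
Share of coding-gene promoters with an open region within 1 kb (bars, in percent) by the number of CpG dinucleotides in the 300 bases around the start, with the number of promoters above each bar. Member promoters are named above their class with their CpG count, in red with a star where a region was listed. Kcnn4 and Scnn1g are starred, while Cftr, Atp1b1 and the first Slc4a4 start stand without a star in the class of highest CpG count.

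Letters of 9 short motifs were searched on both strands of the same windows. A match of GCCNNNGGC can contain CCAAT, and other matches may overlap. Kcnn4 held TGTGGT, the core letters bound by RUNX factors, 4 times, and 14.97% of coding promoters held it at least once. It also held GGAATG, the TEAD letters, once (13.6% of promoters). The Cftr window held the GC box GGGCGG, letters bound by KLF and SP factors, 6 times, that of Ano1 4 times and those of Scnn1g and Atp1b1 2 times each. Kcnn4, Scnn1b and the first start of Slc4a4 held it once each, and 46.2% of promoters held at least 1. Atp1b1 held CCAAT, the NF-Y letters, 2 times (38.2% of promoters), and Cftr and the second start of Slc4a4 held it once each. GCCNNNGGC, the AP-2 letters, occurred once each in Ano1 and Cftr (19.9% of promoters). TGANTCA of AP-1 (6.99% of promoters), TGTTTAC of FOX (3.00%), AACCGGTT of Grainyhead (0.179%) and TATAAA (12.6%) were in no member window. Such matches are letters and not bound sites.

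Other genes of salivary ion transport were counted in the same way. Of 54 genes in 5 lists, 22 (40.7%) had a region at the 5′ end, near the 38.3% of all coding genes. Shares of the lists ran from 33.3% (5 of 15 ductal transport genes) to 46.2% (6 of 13 acinar secretion genes). Among the acinar secretion genes, the bicarbonate cotransporter gene Slc4a7 had the strongest promoter region with a fold of 15.6, followed by the anion exchanger gene Slc4a2 (9.99) and Lrrc8a, which encodes a subunit of volume-regulated anion channels (6.02). Itpr2, which encodes a receptor for inositol trisphosphate that releases calcium from stores, held 12 regions in its 394.0 kb, the most of this list. Such counts were not taken per length here. Long genes hold more regions, and the median length of coding genes was 17554 bp. Aqp5, the acinar water channel, had 0 in the gene or at its start, and its nearest region was 37.0 kb away.

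Among the ductal transport genes, the chloride channel gene Clcn2 (fold 9.64), Slc9a3r1, which encodes a scaffold that binds CFTR (9.55), and Ahcyl1, a regulator of ion transporters (9.40), had the strongest promoter regions. Ezr, which encodes ezrin, had the most other regions, with 3 in the gene and 4 within 50 kb. No region at all was listed at, in or within 50 kb of Slc9a2, a sodium proton exchanger gene, or Foxi1, which encodes a factor of ionocytes, and these were named after their values were seen. Of 14 genes that regulate ENaC, 6 had a region at the 5′ end. The highest folds were those of Cnksr3 (8.41), the channel-activating protease gene Tmprss4 (7.36) and the deubiquitinase gene Usp2 (7.36). Nedd4l, which encodes the ubiquitin ligase that removes ENaC from the membrane, held 13 regions in its 333.3 kb, although none lay at its 5′ end.

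Of 5 genes of the WNK kinase pathway, which controls the cotransporter encoded by Slc12a2, 2 had a promoter region. These were the kinase genes Oxsr1 (fold 12.3) and Wnk1 (12.0), and the kinase gene Stk39 held 8 regions in its 261.7 kb. For the sodium pump, 3 of 7 further genes had a promoter region. They included Atp1b3, which encodes another beta subunit (fold 11.4, IDR score 1000), and Fxyd3, which encodes a pump regulator (6.23, IDR score 824). Fxyd2, also named after its values were seen, had no region in any of the 3 places. Atp1b1 thus lacked a listed promoter region while Atp1b3 had one.

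**Figure D4:**
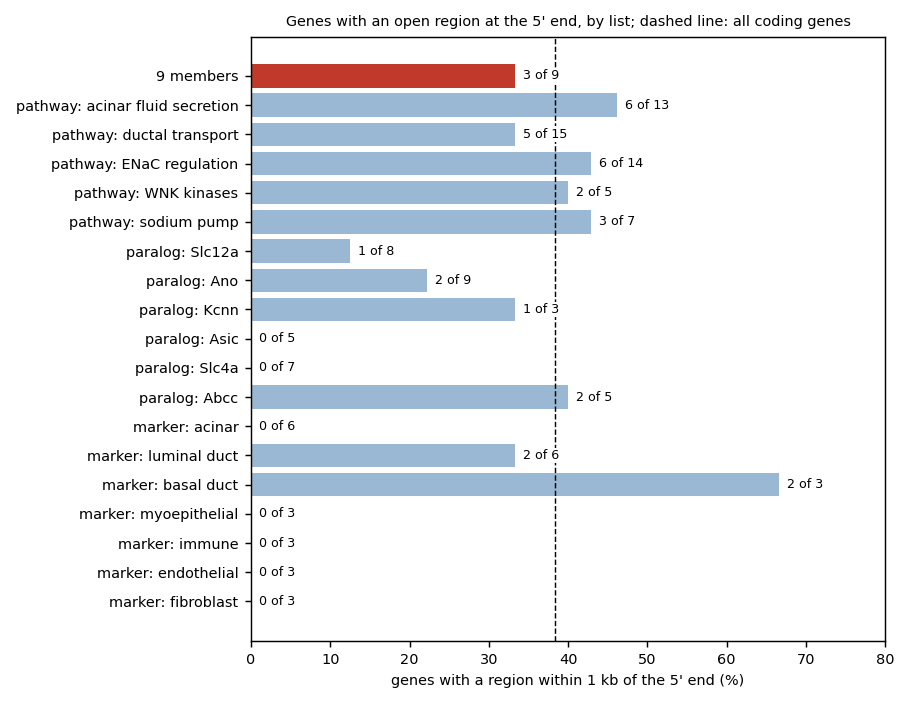
Share of genes with an open region within 1 kb of the 5′ end (x axis, percent) for the 9 members (red) and for the lists of other pathway genes, paralogs and cell type markers (blue), with the number of genes beside each bar. The dashed line marks 38.3%, the share over all coding genes. The members lie at 33.3%, and no acinar marker has such a region.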

How the data were processed

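Bulk ATAC-seq libraries of 4 mSGO samples were sequenced in paired-end mode. Alignment and peak calling were done by the authors in the ATAC-seq pipeline of ENCODE (version not given in the sources used here). The deposited list was taken as their consensus of all samples, which is an assumption. Its 32011 regions are fewer, and its 69545 lines more, than the peaks of the consensus in the paper. Whether all 4 samples contributed to it is not known. The submitters' processing notes name GRCm39 and HOMER without a role. The deposited list gives, per summit, an IDR score, a fold (ratio) over local background, a −log10 q-value and the summit position. From it, 69545 lines were joined by chromosome, start and end into 32011 regions with the values of their strongest summit by q-value. Gene spans came from the RefSeq table of GRCm38.p6. Strand came from the RefSeq promoter table of that build for 17491 coding genes and from GENCODE by gene name, without coordinates, for 3945. Where both gave a strand, they matched for 99.4% of genes. Promoter sequences were found for 7 of 9 members, and those of Scnn1a and Slc12a2 are not shown. Members and lists were chosen with earlier results of these data known. Genes named from lists are the 3 with the highest promoter fold and the 1 with most other regions in each list, and paralogs with a promoter region; some genes that this rule names are not reported here. Counting was tested on simulated data. Python 3.11.15, numpy 2.4.6, pandas 2.3.3 and matplotlib 3.10.9 were used.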

Additional observations from a re-analysis of the deposited data

How the results depend on the processing

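All counts come from 1 list, and its depth is unknown, so that an unlisted region may be open below the authors' thresholds. No paired analysis was possible because the list holds no values per sample, and samples could not be left out for the same reason. Of 70 values under alternatives, 36 stayed within 1.5 times the main value. With only IDR scores of 1000, 1 of 9 members (Scnn1g) had a region at the 5′ end, 1 of 4 ductal and 0 of 3 acinar genes, and 24.0% of coding genes. Regions in genes then numbered 7 for all members, 4 ductal and 1 acinar, with a region in 14.0% of coding genes. Regions outside numbered 20, 7 and 8, with a region for 53.5% of coding genes. In the 16006 regions with the lowest q-values, 1 ductal gene (Scnn1g) kept its 5′ region and Kcnn4 did so too, beside 25.9% of coding genes. Regions in genes numbered 9 for all members and 5 ductal, with a region in 15.2% of coding genes. Regions outside numbered 20, 6 ductal and 8 acinar, with a region for 56.4% of coding genes. Within 2 kb of the 5′ end, or by any overlap, 2 of 3 acinar genes had a region, since that of Slc12a2 was then counted. The shares of coding genes were 41.4% and 39.1%. Counting each summit gave 39, 21 and 7 in the genes of all members, ductal and acinar. For regions outside, windows of 20 kb gave 9, 2 and 6, of 100 kb 64, 28 and 27, and within 50 kb of the 5′ end 18, 7 and 7. The shares of coding genes with such a region were 49.0%, 81.8% and 62.6% in that order. Larger or smaller windows change these counts by construction. The share of coding 5′ ends with a region was 3.77% after a shift of 50 kb and 5.03% for GRCm39. The use of any start in the promoter table was chosen after the data were examined and added 0 members.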

Other observations

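Relatives of the members were counted as well. Of 37 paralogs in 6 families, 6 (16.2%) had a region at the 5′ end, beside 38.3% of all coding genes, and no test was made. Among the relatives of Ano1, Ano6, which encodes a phospholipid scramblase, had a promoter region with a fold of 8.46. It had 7 regions elsewhere in its 184.6 kb, and Ano10 had a promoter region with a fold of 10.2. Kcnn1, a potassium channel gene related to Kcnn4, had a promoter region with a fold of 5.38, while Kcnn2 and Kcnn3, named after their values were seen, had 0 regions at, in or within 50 kb of the gene. Abcc1 and Abcc5, transporter genes related to Cftr, had promoter regions with folds of 7.87 and 7.94. None of the 5 acid-sensing channel genes related to the ENaC subunits had one, nor did any of 7 relatives of Slc4a4. Slc4a2 and Slc4a7, relatives of Slc4a4 that both had a promoter region, were listed with the acinar secretion genes and are not among the 37, which lowers the share of paralogs.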
